A study of Mus musculus with 20 samples.

Results

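The genes described here are the processed pseudogenes of the cytosolic ribosomal protein genes, followed over 20 mouse aorta libraries. They were taken from the GENCODE M21 annotation of mm10 as every gene of type processed or transcribed processed pseudogene whose symbol starts with Rpl or Rps and carries the suffix -ps. The annotation lists 294 of them, 287 processed and 7 transcribed. Of these, 267 had a transcript model in the tables and all 267 were above 0 in at least 1 library, out of 42890 genes in all. The other 27 were not analysed here. The choice used names only and no measured value.

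Ribosomal protein genes encode the proteins of the large subunit (Rpl) and the small subunit (Rps) of the ribosome, and their short, abundant, spliced mRNAs are present in nearly every cell. A processed pseudogene is a copy of such an mRNA that was reverse transcribed and inserted elsewhere in the genome, so it has no introns and usually no promoter of its own. Recent copies still match the parent mRNA almost base for base, and a sequencing read from one can then be placed on the other.

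The libraries came from abdominal aortas of C57BL/6 mice of 2 genotypes, wild type for Rab22a (labelled Rab22 WT) and Rab22a knockout (labelled Rab22a KO), after 14 days of saline or of angiotensin II (AngII) at 500 ng/kg/min. Rab22a encodes a small GTPase of endosomal traffic, and AngII is the vasoconstrictor peptide of the renin-angiotensin system. Each of the 4 groups (wild type saline, wild type AngII, knockout saline and knockout AngII) held 5 mice, and going by the series' title the study asked whether loss of Rab22a protects from hypertension caused by AngII. Total RNA was depleted of ribosomal RNA, not selected for poly(A) tails, and values were deposited as FPKM, that is fragments per kilobase of transcript, scaled to the size of the library. The labels used here do not state age, sex or how the gene was deleted.

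The labels were checked on Rab22a itself and on marker genes of aortic cell types. The main protein-coding transcript of Rab22a held 1.87 to 8.62 FPKM in the 10 wild type libraries and at most 0.00563 FPKM in the 10 knockout libraries. A transcript model of the same gene annotated for nonsense-mediated decay held 0.162 to 3.61 FPKM in wild type and 7.43 to 11.1 FPKM in knockout, so the summed value of the gene was no lower in knockout (7.51 to 11.1 FPKM) than in wild type (2.65 to 10.4 FPKM). Markers of smooth muscle, the main cell of the aortic wall, were present in every library (mean log2(FPKM + 1) 5.65 to 7.54), as were those of endothelium, fibroblasts and white fat, while those of skeletal muscle ran from 0.477 to 8.75 within groups of both genotypes. The values imply between 6.87e+07 and 7.74e+07 reads per library. Of the 16637 transcript models without annotation, none carries a gene name, and they held 10.6% to 12.9% of the FPKM of a library.

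How close these copies are to their parents is shown by the 4 most abundant pseudogenes, which have 4 different parents. Each pair gives 120 bases of the pseudogene and the same stretch of the parent's coding sequence, both read from the GENCODE M21 transcript sequences (mm10), 5′ to 3′ along the gene, with the bases at which they differ in capitals. The stretches lie at chr7:72648821-72648940 (minus strand), chrX:151215218-151215337 (minus strand), chr16:20822168-20822287 (minus strand) and chr9:83409915-83410034 (plus strand).
Rpl17-ps10: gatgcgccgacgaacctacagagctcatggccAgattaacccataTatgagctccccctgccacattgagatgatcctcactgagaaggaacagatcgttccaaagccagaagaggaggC
Rpl17: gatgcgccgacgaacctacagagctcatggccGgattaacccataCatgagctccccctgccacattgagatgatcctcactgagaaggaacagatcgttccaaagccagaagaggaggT
Rpl21-ps15: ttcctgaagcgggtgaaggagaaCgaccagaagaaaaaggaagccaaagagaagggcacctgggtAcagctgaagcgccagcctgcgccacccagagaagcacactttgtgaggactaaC
Rpl21: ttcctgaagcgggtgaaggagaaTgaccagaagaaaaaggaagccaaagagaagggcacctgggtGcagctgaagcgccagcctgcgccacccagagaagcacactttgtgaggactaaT
Rps10-ps2: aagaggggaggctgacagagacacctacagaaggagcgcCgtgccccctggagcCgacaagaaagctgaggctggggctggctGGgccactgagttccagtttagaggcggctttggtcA
Rps10: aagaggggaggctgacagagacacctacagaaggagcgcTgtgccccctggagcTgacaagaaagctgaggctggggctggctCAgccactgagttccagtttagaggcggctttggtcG
Rps27a-ps2: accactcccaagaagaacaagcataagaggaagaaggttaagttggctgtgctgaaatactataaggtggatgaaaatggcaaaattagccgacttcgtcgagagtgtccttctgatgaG
Rps27a: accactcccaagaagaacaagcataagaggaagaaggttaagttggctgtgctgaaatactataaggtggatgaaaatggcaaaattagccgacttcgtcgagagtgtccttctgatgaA
Rpl17-ps10 differed from Rpl17 at 4 of 555 aligned bases, 3 of them in the stretch shown. For Rpl21-ps15 the stretch holds all 3 differences in 483 aligned bases, and for Rps10-ps2 all 5 in 496. Rps27a-ps2 differed from Rps27a at 1 of 467 aligned bases, so most reads within this alignment carry no base that tells the genes apart. The Rps27a transcript is 791 bases long, and its reads from outside the alignment are not covered by this statement.

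Of the 267 pseudogenes, 83 reached 1 FPKM in at least 5 libraries and were tested, 48 named for large and 35 for small subunit proteins, with 42 parent genes and positions on 20 chromosomes. The other 184 stayed under that filter. Tested pseudogenes averaged 0.692 to 310.4 FPKM with a median of 10.8, and they held 99.3% of the FPKM of the whole set. Just inside the filter, Rpl3-ps2 and Rps4x-ps reached 1 FPKM in 5 libraries with means of 0.692 and 0.777 FPKM. Just outside, Rps15a-ps5 reached it in 4 libraries with a mean of 0.664 FPKM. A pseudogene could thus pass through 1 group in which it was high.

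The level of a pseudogene went with its identity to the parent, that is the share of matching bases over an alignment of at least 90% of its length, which could be measured for 256. All 12 copies with 100% identity were tested, with a median of 27.7 FPKM over their means. From 99% to under 100%, 42 of 43 were tested and the median was 13.4 FPKM. From 98% to under 99%, 20 of 39 were tested with a median of 0.692 FPKM over all 39. Between 95% and 98% the count was 7 of 66 and the median 0.0392 FPKM, and below 95% it was 2 of 96 and 0.0261 FPKM. The steep rise above 98% is a description across genes that share reads, with no test.

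**Figure D1:**
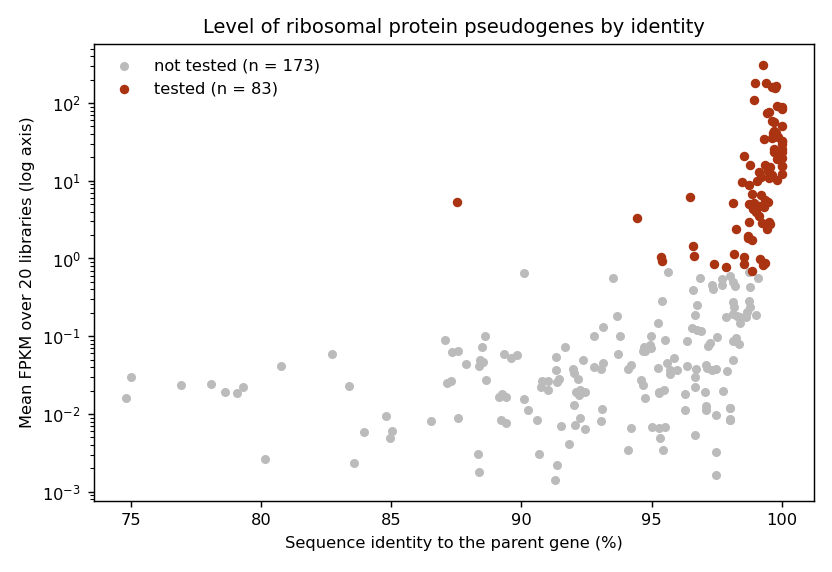
Mean FPKM of each pseudogene over the 20 libraries (y axis, log scale) against its sequence identity to the parent gene (x axis, %), with the 83 tested genes in red and the others in grey. The 12 copies with 100% identity all lie above 12 FPKM, and nearly all copies under 98% lie below 1 FPKM.

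Sequence shared with other genes was common among the tested copies. A window of 100 bases was called shared when it occurs in a transcript of another gene without a mismatch. The median tested pseudogene had 72.6% of its windows shared, and 20 had all of them shared, against a median of 0 among the 184 below the filter. For those 20, which include Rps16-ps2, Rpl31-ps8, Rpl7a-ps11 and Rps19-ps2, no read of 100 bases can tell the copy from another gene. How the authors assigned such reads is not given in the sources used here, so the levels of all these copies are uncertain as measures of transcription from their own locus. An open reading frame from the parent's start codon to its stop codon, without a gap or an earlier stop, was found in 46 of the 83 tested copies and in 46 of the 184 others. It was broken or gapped in 9 tested copies and 50 others. In 28 tested copies and 88 others the alignment was partial or missing, so their frame was not judged. Inside introns of other genes lay 13 on the same strand and 22 on the opposite strand, and 45 overlapped no other gene. Rpl19-ps11 and Rpl19-ps1 lay over annotated microRNA genes on the same strand, Gm27288 and Gm27907.

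The copies with the highest means were Rpl17-ps10 (310.4 FPKM, chr7:72648757-72649311, minus strand), Rpl21-ps15 (182 FPKM, chrX:151215167-151215649, minus strand), Rps10-ps2 (179 FPKM, chr16:20822145-20822640, minus strand), Rps27a-ps2 (164 FPKM, chr9:83409660-83410126, plus strand), Rpl17-ps3 (161 FPKM, chr12:67510756-67511311, plus strand) and Rpl7a-ps11 (158 FPKM, chrX:166854211-166855011, plus strand). Next came Rpl14-ps1 (108 FPKM) and Rpl9-ps4 (90.8 FPKM), and then Rps16-ps2 (89.6 FPKM) and Rpl31-ps8 (83.8 FPKM), both of which are identical to their parents over their whole length. These 10 held 57.6% of the FPKM of all 267. In 6 tested pseudogenes the mean lay above that of the parent: Rpl17-ps10 and Rpl17-ps3 (Rpl17 averaged 88.4 FPKM), Rpl21-ps15 and Rpl21-ps8 (Rpl21, 15.3 FPKM), Rps27a-ps2 (Rps27a, 49.3 FPKM) and Rpl7a-ps11 (Rpl7a, 49.4 FPKM). Whether some parent transcripts are among the unannotated models, which have no gene name and are not in these parent values, was not tested.

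These parents did not hold one level even among mice of 1 group. Rpl17 held 0.277, 121, 138, 0.234 and 100.6 FPKM in wild type saline, 213, 172, 0.526, 126 and 377 in wild type AngII, 254, 5.80, 163, 0.372 and 7.34 in knockout saline and 51.9, 36.6, 0.293, 0.277 and 0.310 in knockout AngII. It was under 1 FPKM in 7 libraries spread over all 4 groups and above 100 FPKM in at least 2 libraries of every group but knockout AngII, where its highest value was 51.9 FPKM. Rpl17-ps10 held 331, 247, 337, 430.0 and 203 FPKM in wild type saline, 189, 437, 291, 350.5 and 229.9 in wild type AngII, 389.7, 196, 623, 208 and 209.9 in knockout saline and 203, 235, 309, 487 and 300.1 in knockout AngII. This copy showed no such drops: where Rpl17 was under 1 FPKM, Rpl17-ps10 held 208 to 487 FPKM. Over the 20 libraries the coefficient of variation was 120% for Rpl17, 34.7% for the sum of its 5 tested copies and 38.1% for parent and copies together.

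Rps27a, which encodes a fusion of ubiquitin and a small subunit protein, showed the reverse case. Rps27a held 25.1, 4.12, 17.98, 5.04 and 22.6 FPKM in wild type saline, 25.5, 43.8, 12.6, 336 and 363 in wild type AngII, 30.9, 12.7, 20.2, 14.3 and 10.3 in knockout saline and 1.65, 2.15, 18.1, 17.5 and 3.14 in knockout AngII. The values of 336 and 363 FPKM belonged to wild type AngII replicates 4 and 5, and no other library exceeded 43.8 FPKM. Rps27a-ps2 held 180.1, 164, 216, 221 and 158 FPKM in wild type saline, 205, 268, 151, 64.9 and 127 in wild type AngII, 218, 110.5, 291, 109.8 and 104 in knockout saline and 102, 107, 131, 209.7 and 138 in knockout AngII. Its 64.9 FPKM in replicate 4 of wild type AngII was its lowest value of all 20 libraries, in the same library in which the parent held 336 FPKM. Rpl21 (1.90 to 49.6 FPKM, coefficient of variation 84.9%) and Rpl7a (4.62 to 151 FPKM, 81.7%) also varied more than the sums of their tested copies (29.4% and 25.7%). For Rps10 the parent and its copies had like coefficients (40.02% and 36.5%), and so did Rpl14 and Rpl14-ps1 (28.0% and 28.8%). The cause of the jumps was not tested.

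**Figure D2:**
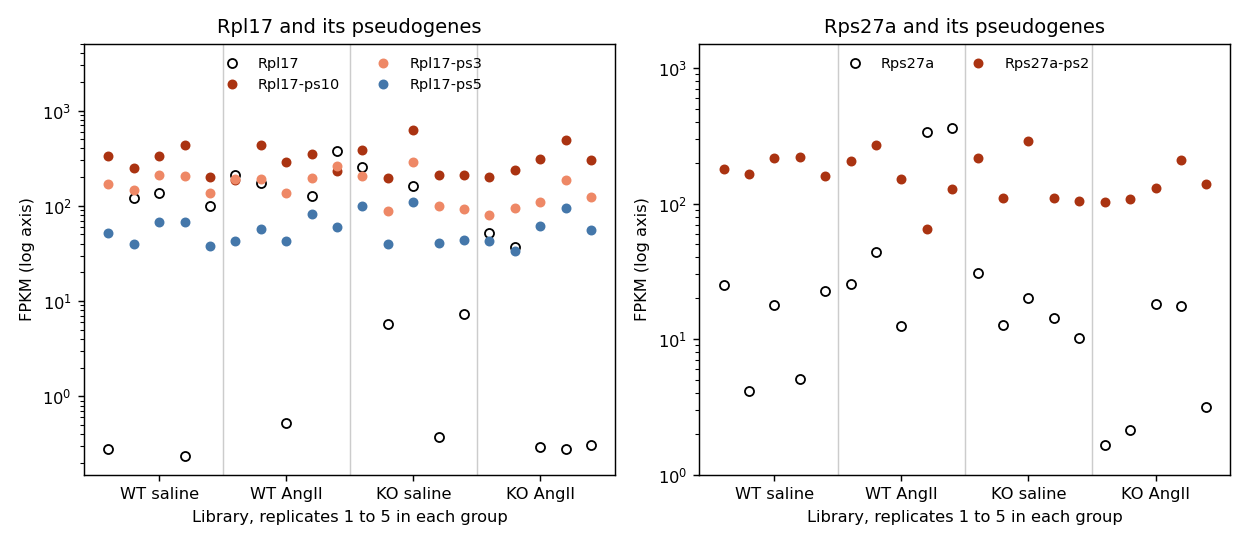
FPKM (y axis, log scale) in each of the 20 libraries (x axis, replicates 1 to 5 of the 4 groups) for Rpl17 with 3 of its copies (left) and Rps27a with its tested copy (right), parents as open circles. Rpl17 drops under 1 FPKM in 7 libraries while its copies do not, and Rps27a exceeds 300 FPKM in 2 wild type AngII libraries, in 1 of which Rps27a-ps2 has its lowest value.

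Summed over all 267, the pseudogenes held 2763 ± 448 FPKM in wild type saline (SD, n = 5), 3090 ± 517 in wild type AngII, 2581 ± 1292 in knockout saline and 2157 ± 629 in knockout AngII. In knockout saline the sums were 3523, 1659, 4389, 1715 and 1621 FPKM, and in knockout AngII they were 1571, 1791, 2096, 3207 and 2122 FPKM. Knockout saline replicates 1 and 3 were above every wild type saline library, while the other 3 were below all of them. Relative to the summed parents the set was steady, at 18.8% to 23.5% in every library.

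Lymphocyte markers moved with these sums in the knockout libraries, and less regularly in wild type. The list of 10 B and plasma cell genes had a mean log2(FPKM + 1) of 3.66 to 5.37 in wild type saline, 4.03 to 5.28 in wild type AngII, 0.957 to 5.42 in knockout saline and 0.746 to 5.16 in knockout AngII. The 10 T and NK cell genes spanned 2.30 to 4.80, 3.79 to 4.73, 0.787 to 5.59 and 0.736 to 4.75 in the same order. None of these 20 genes was at 0 in every library. The 5 knockout libraries at or under 1.84 on the B and plasma cell list were knockout saline replicates 2, 4 and 5 and knockout AngII replicates 1 and 2, and they had the 5 lowest pseudogene sums of that genotype (1571 to 1791 FPKM). Knockout saline replicates 1 and 3 and knockout AngII replicate 4, at 5.42, 5.32 and 5.16, had the 3 highest (3207 to 4389 FPKM). Macrophage markers followed the same order, with a mean log2(FPKM + 1) of 6.34, 6.97 and 6.26 in those 3 libraries and 4.35 to 4.88 in the 5 lowest. In wild type saline, replicate 4 was highest and replicate 5 lowest in both the B and plasma cell list and the sum. In wild type AngII, replicate 3 had the lowest sum (2404 FPKM) at 4.98 on that list, and replicate 2 the highest (3789 FPKM) at 4.64. Over both treatments, 10 of 10 B and plasma cell genes were lower in knockout with 1 past the test, at a median log2 difference of -1.54, and 10 of 10 T and NK cell genes were lower with none past it, at -1.45. Of the macrophage genes 7 of 8 were lower at -0.51 and of the smooth muscle genes 7 of 7 at -0.21, with none past the test in either list. Skeletal muscle had 7 of 8 genes lower (median -0.35), brown fat 4 of 5 (-0.45) and mesothelium 2 of 3 (-0.17), with none past the test. White fat had 5 of 6 lower (-0.24), with 1 past it. Other lists differed little: endothelium had 4 of 6 genes lower (median -0.03), and fibroblasts 3 of 6 (0.003, 1 past the test). Of the neuron and Schwann cell genes 2 of 6 were lower, with a median of 0.10. In bulk tissue, fewer cells of a type and less RNA per cell cannot be told apart, and the part of the marker levels in the sums was not tested.

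**Figure D3:**
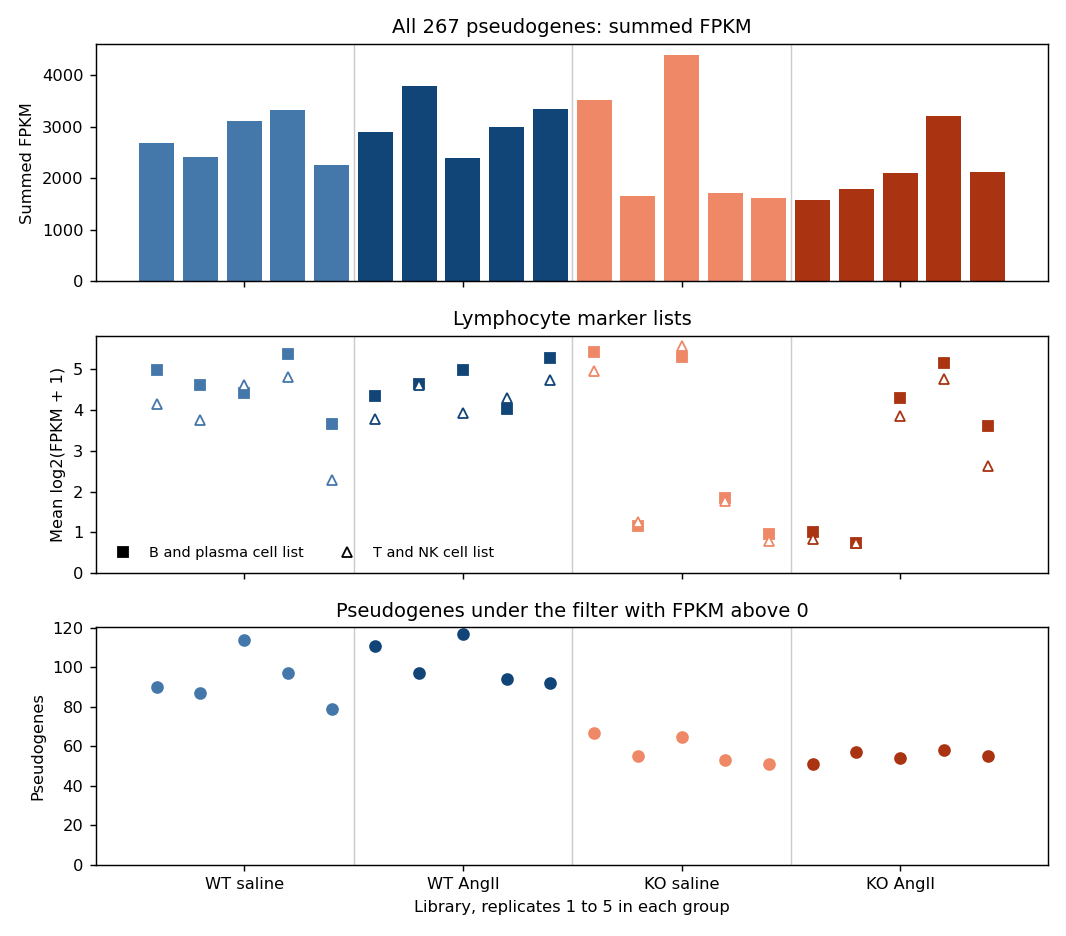
For each of the 20 libraries (x axis, replicates 1 to 5 of the 4 groups): summed FPKM of the 267 pseudogenes (top, bars), mean log2(FPKM + 1) of the B and plasma cell and T and NK cell lists (middle), and the number of the 184 pseudogenes under the filter that were above 0 (bottom). Knockout libraries low in the marker lists have sums of 1571 to 1791 FPKM, whereas the count in the bottom panel is 51 to 67 in all knockout and 79 to 117 in all wild type libraries.

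Under AngII, 81 of the 83 tested pseudogenes were lower in knockout than in wild type, with a median log2 difference of -0.55, against -0.10 over all 15010 genes tested. Of these, 7 fell past the threshold of the limma test (adjusted p under 0.05 over all genes tested), which is 8.43% of the tested members, and none rose. Among all genes tested 1.83% passed in either direction, 1.44% as lower and 0.393% as higher in knockout. In 15 tested pseudogenes every knockout AngII library lay below every wild type AngII library, which is 18.1% of them, against 3.84% of all genes tested. Both the 7 and the 15 include Rpl3-ps2, which passed the filter mainly through wild type AngII, the group in which it is high. The 15 also include Rps6-ps3, which reached 1 FPKM in wild type only under AngII. Neither adds support for a difference. At an unadjusted p under 0.05 the count was 47 of 83, and 17.3% of all genes tested. The p-values measure the spread between these mice. Limma-voom on reads recovered from the FPKM called 1 of the 83, with 44 under 0.05. It called 165 of the 15010 genes, so the share of members called was near that of all genes in this fit.

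Among the 7 were 2 copies of Rps2, which encodes a small subunit protein near the mRNA entry site. Rps2-ps10 held 16.8, 18.2, 18.2, 19.6 and 19.4 FPKM in wild type saline, 24.3, 27.3, 15.5, 18.4 and 19.7 in wild type AngII, 17.9, 9.98, 18.9, 10.9 and 9.33 in knockout saline and 9.73, 10.2, 10.1, 14.1 and 11.1 in knockout AngII. Every wild type AngII library was above every knockout AngII library, and the log2 difference was -0.85 ± 0.18 (SE, adjusted p = 0.0303). Rps2-ps13 held 11.9, 11.3, 13.8, 15.4 and 15.2 FPKM in wild type saline, 17.2, 19.9, 11.0, 11.9 and 16.4 in wild type AngII, 10.4, 6.86, 12.6, 6.59 and 5.07 in knockout saline and 6.35, 8.10, 5.57, 9.65 and 8.43 in knockout AngII. The lowest wild type AngII value was again above the highest knockout AngII value, with a log2 difference of -0.91 ± 0.21 (adjusted p = 0.0353). Rps2 itself averaged 798 ± 126 FPKM in wild type AngII and 457 ± 91.0 in knockout AngII (SD, n = 5), with a difference of -0.81 ± 0.21 that missed the threshold (adjusted p = 0.0542).

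Rpl28-ps3, a copy of the large subunit gene Rpl28 with 3 mismatches and 16.7% of its windows shared, was the called member with the least shared sequence. Rpl28-ps3 held 3.21, 3.29, 2.90, 4.62 and 3.28 FPKM in wild type saline, 3.91, 4.67, 3.37, 3.53 and 3.68 in wild type AngII, 3.39, 1.52, 3.93, 1.87 and 1.83 in knockout saline and 0.677, 1.998, 1.26, 2.05 and 2.11 in knockout AngII. All 5 wild type AngII values exceeded all 5 knockout AngII values, at a log2 difference of -0.92 ± 0.20 (adjusted p = 0.0307). Rpl28 fell as well, by 0.90 on the log2 scale (adjusted p = 0.0466), from 377 ± 63.4 to 204 ± 47.6 FPKM.

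The largest called difference was that of Rpl27-ps3, a copy of the large subunit gene Rpl27 that matches it at every base. Rpl27-ps3 held 32.0, 28.4, 37.6, 41.2 and 28.3 FPKM in wild type saline, 34.3, 48.5, 31.5, 35.9 and 45.3 in wild type AngII, 38.0, 18.8, 46.0, 19.4 and 17.2 in knockout saline and 12.5, 15.5, 15.5, 27.4 and 20.5 in knockout AngII. Knockout AngII lay wholly below wild type AngII, with a difference of -1.09 ± 0.25 (adjusted p = 0.0371), while Rpl27, at 406 ± 66.1 FPKM in wild type AngII and 208 ± 65.4 in knockout AngII, missed the threshold (adjusted p = 0.0562).

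Rpl10-ps6 copies Rpl10, whose protein joins the large subunit late in its assembly. Rpl10-ps6 held 39.0, 36.0, 46.2, 45.6 and 37.1 FPKM in wild type saline, 52.3, 57.6, 36.5, 45.3 and 52.3 in wild type AngII, 39.0, 24.2, 50.9, 23.3 and 23.6 in knockout saline and 18.8, 23.3, 24.4, 36.5 and 26.4 in knockout AngII. The groups under AngII touched, since knockout replicate 4 and wild type replicate 3 both held 36.5 FPKM, and the log2 difference was -0.91 ± 0.21 (adjusted p = 0.0349). Rpl3-ps2, from the large subunit gene Rpl3, held 1.00, 1.26, 0.947, 1.24 and 1.095 FPKM in wild type AngII and 0.405, 0.274, 0.430, 0.565 and 0.473 in knockout AngII. These groups did not overlap, and its difference of -0.56 ± 0.13 (adjusted p = 0.0406) is on the log2(FPKM + 1) scale, which understates changes near 1 FPKM. Of the 5 libraries that took Rpl3-ps2 past the filter 4 were wild type AngII, so it entered the test through the group in which it is high, and its call and its lack of overlap support nothing.

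The calls depended on single libraries. Leaving out any 1 of 7 libraries (wild type AngII replicates 1, 2 and 4, and knockout AngII replicates 1, 2, 3 and 5) ended all 7 calls, wild type AngII replicate 5 left 2 and wild type saline replicate 1 left 4. Without knockout saline replicate 3, which enters only through the shared spread, 18 were called, without knockout AngII replicate 4 it was 17, without wild type AngII replicate 3 it was 16 and without knockout saline replicate 1 it was 12. Across the fits without 1 library, 9 to 484 of the 15010 genes were called. A fit with the levels of both lymphocyte lists as covariates, chosen after the data were seen, also called 7 (8.43% of the members, against 2.92% of all genes in that fit), of which 5 were the same genes. It moved the median from -0.55 to -0.30 and the number of lower members from 81 to 66 of 83. In that fit Rpl27-ps3 differed by -0.67 ± 0.14 (adjusted p = 0.0322) and Rps2-ps10 by -0.62 ± 0.15 (adjusted p = 0.0393), while Rps2-ps13 and Rpl3-ps2 were no longer called and Rpl10-ps1 and Rpsa-ps10 were.

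Over both treatments, which used the same libraries and so is not a second line of evidence, 81 of 83 pseudogenes were again lower in knockout, with a median log2 difference of -0.40 against -0.07 over all genes. With the lymphocyte covariates 63 of 83 were lower, with a median of -0.18. The test called 13, all lower, which is 15.7% of the tested members, while 4.15% of all genes were called in either direction, 3.2% as lower and 0.953% as higher. They included the pseudogenes described above and Rpl7a-ps5, Rpl36a-ps2, Rpl28-ps1, Rpl10-ps1, Rpl9-ps7 and Rps16-ps2. Their log2 differences ran from -0.36 ± 0.09 for Rpl3-ps2 to -0.85 ± 0.23 for Rps16-ps2. Rpl3-ps2 passed the filter mainly through wild type AngII, where it is high, so its place among the 13 adds no support. Limma-voom called 7 of the 83. The number of all genes called in that fit is not given here, so these 7 are not set against a background share. They therefore add no support to the 13. In the limma test the smallest adjusted p-values belonged to Rps2-ps13 (-0.80 ± 0.15, adjusted p = 0.00798) and Rps2-ps10 (-0.67 ± 0.13, adjusted p = 0.00967). Without 1 library at a time the count ran from 5 to 37, the highest without knockout saline replicate 3, followed by 28 without knockout saline replicate 1, 24 without knockout AngII replicate 4 and 18 without wild type AngII replicate 3, and it was 11 without wild type saline replicate 1 and 5 to 7 without any other. Across the same fits 281 to 1007 of the 15010 genes were called.

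Rps16-ps2 shows what these differences look like in a copy identical to its parent (chr5:129128077-129128517, minus strand, inside an intron of Adgrd1 on the other strand). Rps16-ps2 held 89.4, 84.3, 119.9, 133 and 78.4 FPKM in wild type saline, 114, 158, 102, 108 and 129 in wild type AngII, 109.6, 45.0, 148, 42.2 and 40.4 in knockout saline and 35.2, 46.9, 56.9, 96.8 and 54.4 in knockout AngII. The 3 knockout saline libraries low in lymphocyte markers held 40.4 to 45.0 FPKM and the other 2 held 109.6 and 148 FPKM, within or above the range of wild type saline. Rps16-ps2 stood at 20.02% to 30.2% of the level of Rps16 in every library, although the 2 genes cannot be told apart by any read within the copy. Its difference over both treatments was -0.85 ± 0.23 (adjusted p = 0.048), and -0.42 ± 0.12 (adjusted p = 0.0427) with the lymphocyte covariates. That fit called 9 pseudogenes over both treatments, 6 of them among the 13, which is 10.8% of the members against 7.04% of all genes. The other 3, Rpl17-ps5 (0.47 ± 0.12, adjusted p = 0.0276), Rpl17-ps8 (0.35 ± 0.08, adjusted p = 0.0203) and Rpl21-ps8 (0.33 ± 0.10, adjusted p = 0.0475), were higher in knockout in it.

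**Figure D4:**
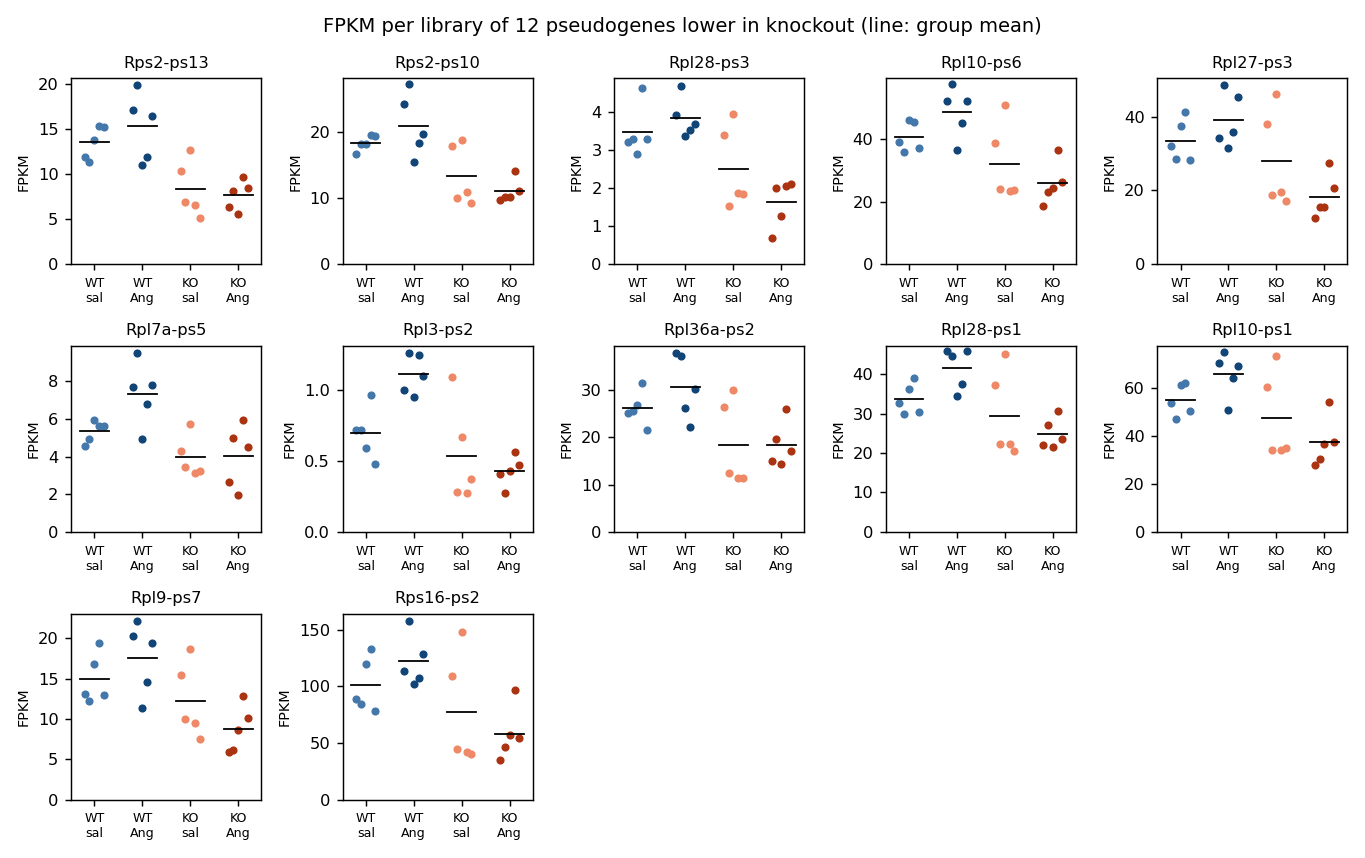
FPKM in each library (points) and group means (lines) of 12 of the pseudogenes called as lower in knockout over both treatments, with wild type in blue and knockout in orange and red, y axes starting at 0. In every panel 2 knockout saline libraries, replicates 1 and 3, sit within or near the wild type saline range and the other 3 lie lower.

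Under saline alone, 66 of 83 pseudogenes were lower in knockout, with a median log2 difference of -0.25 (-0.04 over all genes). The limma test called none of them, and 0.0133% of all genes, while 9 members (10.8%, against 7.37% of all genes) had an unadjusted p under 0.05, and limma-voom on recovered reads called 0 with 7 under 0.05. None had all knockout saline libraries below all wild type saline libraries, against 1.02% of all genes. The smallest p-values were those of Rps2-ps13 (-0.69 ± 0.21, adjusted p = 0.455) and Rps2-ps10 (-0.49 ± 0.18, adjusted p = 0.558). Knockout saline replicates 1 and 3 were chosen after the data were seen and are also the libraries with the highest pseudogene sums. Leaving them out gave 6 calls among the 83 members, beside 49 among the 15010 genes, and a member median of -0.63. With the lymphocyte covariates and all libraries the median was -0.06 and no member was called.

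AngII itself changed no pseudogene past the test in either genotype. In wild type 76 of 83 were higher with AngII, at a median log2 difference of 0.20 (0.02 over all genes), and 5 (6.02%, against 3.05% of all genes) had an unadjusted p under 0.05. In knockout 64 of 83 were lower, at -0.16 (-0.06 over all genes), and 1 (1.20%, against 3.96% of all genes) had an unadjusted p under 0.05. Without knockout saline replicates 1 and 3 that median was 0.19. The limma test called 0% of all genes in both comparisons, and limma-voom called no member in either, with 3 and 1 under 0.05. Among the smallest p-values in wild type was that of Rps6-ps3, a copy of a small subunit gene with 98.5% identity. It held 0.609, 0.730, 0.904, 0.933 and 0.526 FPKM in wild type saline and 0.999, 1.49, 1.03, 1.51 and 1.63 in wild type AngII, and its difference was 0.42 ± 0.16, which missed the threshold. In knockout the smallest were those of Rpl38-ps2 (-0.60 ± 0.24) and Rpl27-ps3 (-0.52 ± 0.25), both with an adjusted p of 0.991.

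The interaction, that is the difference between the AngII responses of the 2 genotypes, was negative for 78 of 83 pseudogenes, with a median of -0.37 (-0.07 over all genes). None was called, 4 (4.82%, against 3.34% of all genes) had an unadjusted p under 0.05, and limma-voom called 0 with 1 under 0.05, while 0% of all genes were called. Rps6-ps3 had one of the smallest p-values (-0.57 ± 0.23, adjusted p = 0.995). Without knockout saline replicates 1 and 3 the median interaction was 0.03, so its sign depended on them. Over both genotypes together, AngII gave 40 lower and 43 higher pseudogenes, a median of 0.01, and 0 calls and 0 unadjusted p-values under 0.05 by either limma or limma-voom.

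The parent genes showed differences of like size. Of 42 parents, 40 were lower in knockout under AngII with a median of -0.63, and 4 fell past the test: Rps27a, Rpl28, Rps19 and Rpl18. The difference of Rps27a (-3.46 ± 0.85, adjusted p = 0.0466) includes the 2 wild type AngII libraries above 300 FPKM. Of all 81 tested cytosolic ribosomal protein genes, 78 were lower, 5 of them past the test, with a median of -0.66. Of 19 tested translation factors and other short housekeeping mRNAs (such as Eef1a1 and Tpt1), 16 were lower at a median of -0.35, 8 had an unadjusted p under 0.05 and the smallest adjusted p was 0.116. Among the 619 other processed pseudogenes tested, 472 were lower and 29 fell past the test, at -0.22. Beside these counts, 8.43% of the tested members and 1.44% of all genes tested fell past it. The lists were chosen with results of these data known, and the counts are given as a description.

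To see whether a pseudogene moved apart from its parent, log2((pseudogene FPKM + 1)/(parent FPKM + 1)) was tested over 683 pairs of a processed pseudogene and its parent. The median difference of the 83 members was 0.05 under AngII and 0.03 over both treatments, and in 75 and 78 of the 83 pairs the pseudogene and the parent differed in the same direction. Only 2 members were called in either comparison, Rps19-ps3 and Rps19-ps2, against 1.32% of all pairs under AngII (0.732% higher and 0.586% lower in knockout) and 2.05% over both treatments (1.17% higher and 0.878% lower). In 53 of 83 pairs the ratio varied less over the 20 libraries than the pseudogene itself, with median SDs of 0.31 and 0.47 on the log2 scale. The widest ratio differences under AngII were those of the 5 Rpl17 copies and Rps27a-ps2, whose parents jumped between libraries. They were 3.88 ± 1.98 for Rpl17-ps10 and 3.32 ± 0.98 for Rps27a-ps2, and both missed the threshold (adjusted p = 0.329 and 0.101).

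**Figure D5:**
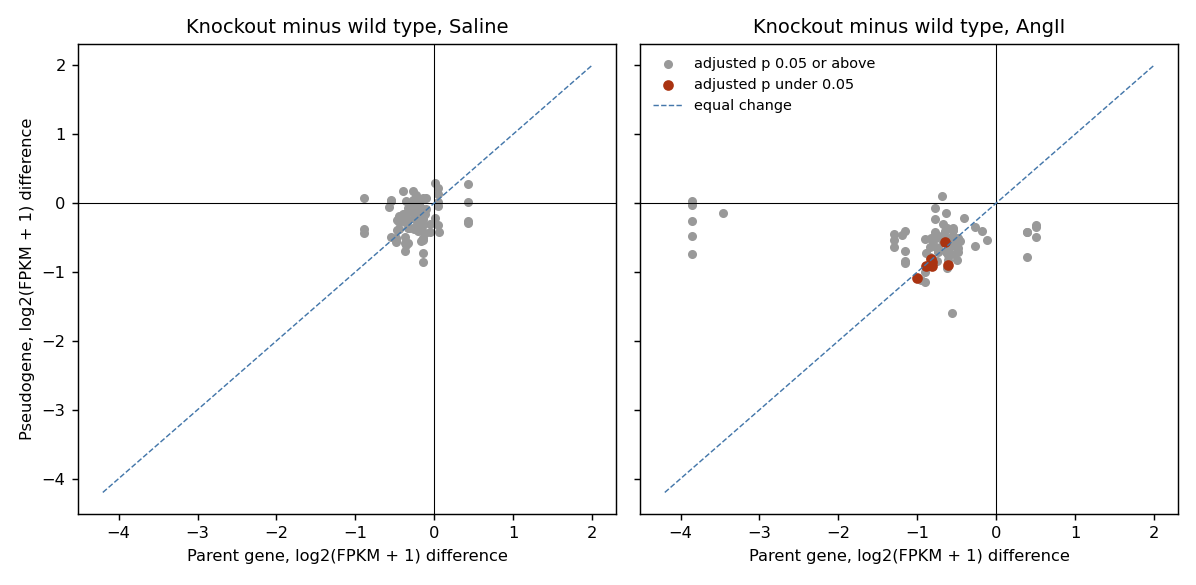
Log2(FPKM + 1) difference of knockout minus wild type for each of the 83 tested pseudogenes (y axis) against that of its parent (x axis), under saline (left) and AngII (right), with called pseudogenes in red and the line of equal change dashed. Under AngII most points lie in the quadrant where both are lower, and the points at the far left belong to copies of Rpl17 and Rps27a.

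Rps19 encodes a small subunit protein needed for the maturation of that subunit, and its 2 called copies were low throughout. Rps19-ps3 held 1.23, 0.857, 0.828, 0.852 and 0.525 FPKM in wild type saline, 1.52, 2.01, 0.990, 1.28 and 1.958 in wild type AngII, 1.32, 0.732, 1.47, 0.862 and 0.345 in knockout saline and 0.312, 0.750, 1.07, 1.55 and 0.752 in knockout AngII. Rps19-ps2 held 1.38, 0.961, 1.18, 1.48 and 0.691 FPKM in wild type saline, 1.59, 1.15, 1.20, 1.03 and 2.08 in wild type AngII, 1.76, 0.682, 2.49, 1.14 and 0.396 in knockout saline and 0.213, 0.547, 0.428, 1.41 and 0.823 in knockout AngII. Wild type and knockout overlapped under both treatments in each copy, with knockout saline replicate 3 the highest of all 20 libraries for Rps19-ps2. Rps19 held 510.4, 668, 370.0, 494 and 551 FPKM in wild type AngII and 146, 186, 203, 334 and 210.1 in knockout AngII, without overlap, and fell in knockout by 1.29 on the log2 scale (adjusted p = 0.0276). The log ratios to Rps19 were higher in knockout under AngII by 0.84 ± 0.16 for Rps19-ps3 and 0.75 ± 0.15 for Rps19-ps2 (adjusted p = 0.00915 for both), and over both treatments by 0.71 ± 0.11 and 0.67 ± 0.10 (adjusted p = 0.00178 for both). With a pseudocount of 0.1 in place of 1 neither passed: under AngII the differences were 0.45 (adjusted p = 0.320) and 0.19 (adjusted p = 0.750), and over both treatments 0.52 (adjusted p = 0.0926) and 0.36 (adjusted p = 0.347). Adding 1 to values near 1 FPKM compresses the change of the copy and leaves that of the parent nearly whole. As a share of Rps19, Rps19-ps3 stood at 0.147% to 0.527% and Rps19-ps2 at 0.145% to 0.490% over the libraries.

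More of the 184 pseudogenes under the filter were above 0 in wild type than in knockout libraries, as were more genes of the whole table, at 26401 to 32363 in wild type against 22226 to 24503 in knockout libraries. In wild type saline 79 to 114 of them were above 0, in wild type AngII 92 to 117, in knockout saline 51 to 67 and in knockout AngII 51 to 58, so every wild type library lay above every knockout library. The count was low in knockout saline replicates 1 and 3 as well (67 and 65), the libraries richest in lymphocyte markers. Their summed FPKM was 17.3 to 27.3 in wild type saline and 21.4 to 26.8 in wild type AngII, and 8.19 to 19.1 and 9.27 to 16.9 in the knockout groups. The mean over wild type libraries was above that over knockout libraries for 167 of the 184 (90.8%), with medians over genes of 0.0565 and 0.00667 FPKM. The same held for 80.9% of all 27880 genes under the filter, with medians of 0.0301 and 0.00590 FPKM, and for 86.4% of the 6662 other processed pseudogenes under it.

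By thresholds chosen after the values were seen, 8 of the 184 (4.35%) were above 0 in at least 7 wild type and at most 2 knockout libraries, and 0 the other way round. Among all genes under the filter 1300 (4.66%) and 6 were, so the share of these pseudogenes was near the background. At these levels a value stands for a few reads, and what sets the number of genes seen was not tested.

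Among the tested copies, most were lower in knockout in every class, in the fit without covariates. Over both treatments that fit called 3.2% of all genes as lower, with a median of -0.07 over all genes. The classes were not counted with the lymphocyte covariates, where 63 of all 83 copies were lower at a median of -0.18. Over both treatments, 47 of 48 large subunit copies were lower in knockout with 9 called and a median of -0.45, and 34 of 35 small subunit copies were lower with 4 called and a median of -0.30. For 12 copies with 100% identity to the parent the median was -0.52 with 5 called, for 42 with 99% to under 100% it was -0.44 with 5 called, and for 29 under 99% it was -0.31 with 3 called. These classes also differ in level, with medians of 27.7, 14.1 and 2.92 FPKM, and the log2(FPKM + 1) scale understates the change of low genes. The 9 tested copies on the X chromosome had a median of -0.36, 2 of them called. The calls among large subunit copies, copies under 99% identity and X chromosome copies include Rpl3-ps2. It passed the filter mainly through wild type AngII, where it is high, so its call adds no support to these counts. Rpl36a-ps3, the tested copy least like its named parent (87.5% identity to Rpl36a), best matched Rpl36al instead and held 6.92 ± 1.83 FPKM in wild type AngII and 3.96 ± 0.526 in knockout AngII, without overlap but short of the threshold (-0.65 ± 0.20, adjusted p = 0.0932). Rps12-ps24, the next least alike (94.4% to Rps12), differed by -0.30 ± 0.25 (adjusted p = 0.566).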

How the data were processed

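Total RNA of 20 mouse abdominal aortas, 5 in each of 4 groups, was extracted with mirVana, depleted of ribosomal RNA and sequenced, per the labels' protocols. The authors deposited 1 FPKM value per transcript model and library, for 126719 models. The submitters' processing notes name mm10 and limma. No aligner, counter or treatment of reads matching several genes is given in the sources used here. Low values were whole multiples of 1 read, within 0.1, for 99.4% to 99.6% of cases.

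From these values FPKM was summed per gene over the Ensembl models found in GENCODE M21 (109913 of 110082). The 16637 unannotated models were not used. Genes at 1 FPKM or more in at least 5 libraries (15010) were fitted in limma 3.58.1 (R 4.3.3) on log2(FPKM + 1), with a mean per group over all 20 libraries and moderated variances with trend and robust settings. P-values were adjusted by Benjamini-Hochberg over all genes tested, with a threshold of 0.05 in each of 7 comparisons, and likewise over 683 pairs for the log ratio to the parent. Parents of the members were taken from the symbol, and for 79 of the 83 tested members the named parent was also the best match. Parents of the other processed pseudogenes among the pairs were their best match among protein-coding transcripts. Identity and shared windows came from blastn 2.17.0 and exact matching of the transcript sequences. The scripts were tested on simulated data.

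Named genes were the 10 with the highest means, the 2 with the smallest p-values in each comparison, those called, the 2 most and 2 least like the parent, those with a mean above the parent or inside another gene's exon on the same strand (up to 5 each), and the parents of all these. The members and lists were chosen with earlier results of these data known. Alternatives covered pseudocount, filter, scaling, limma-voom, replicate block, omitted libraries and, added later, lymphocyte covariates. Same-numbered libraries did not pair. Some pseudogenes that the rule would name are not reported here.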

Additional observations from a re-analysis of the deposited data

Results flagged for a closer look

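Among 128 groups of 5 libraries checked for named genes, 5 held a library far from the other 4, where about 6.4 are expected at 1 in 20. Rpl28-ps3 was 4.62 FPKM in wild type saline replicate 4 and 2.90 to 3.29 FPKM in the other 4. Rpl19-ps4 was 0.218 FPKM in wild type AngII replicate 2 and listed at 0 in the others. Rpl19-ps12 stood alone above 0 in 3 groups, at 0.134 FPKM in wild type saline replicate 5, 0.0461 FPKM in wild type AngII replicate 2 and 0.0442 FPKM in knockout saline replicate 1.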

How the results depend on the processing

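Depth limits the lowest copies most, since the tested pseudogenes had means of 25.4 to 12874 reads. In knockout against wild type under AngII (275 genes and 7 pseudogenes called), TMM-like scaling called 11 pseudogenes, limma-voom 165 genes and 1 pseudogene, and no filter, which adds the low copies, gave a median of -0.11. Under saline (2 genes), quantile scaling, the 5 FPKM filter, the replicate block and limma-voom each called 1 gene, and no filter called 20. Over both treatments (623 genes, 13 pseudogenes), no filter called 1172 genes and limma-voom 7 pseudogenes. Without a filter AngII called 11 genes in wild type and 1 over both genotypes, and the interaction 1. Replicate numbers correlated at -0.52 to 0.41 within pairs, so libraries share only a number, and 3 of 20 libraries were nearest to one of their own number. The replicate block called 70 genes and 0 pseudogenes under AngII, 5 pseudogenes over both treatments, and 9 ratios to the parent over both. For those ratios, the 5 FPKM filter left 0 pseudogenes under AngII, a pseudocount of 0.1 left 3 pairs and 0 pseudogenes under AngII and 0 over both, and protein-coding parents alone gave 4 pseudogenes over both. Where pseudogenes are counted here without the genes or pairs of the same fit, the count is not set against a background share.

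Among alternatives chosen after seeing the data, leaving out knockout saline replicates 1 and 3 gave an AngII median in knockout of 0.19 and an interaction median of 0.0347. Saline then called 49 genes and 6 pseudogenes (median -0.63), AngII 790 and 33, both treatments 3042 and 56, and the saline ratios 2 pairs with 1 pseudogene. Lymphocyte covariates called 439 genes under AngII and 1056 over both, with 5 and 6 ratios.

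Over both treatments the sign of Rpl17-ps10 turned with quantile scaling (0.22), TMM-like scaling (0.0923), limma-voom (0.0165) and the covariates (0.33), and ran from -0.14 to 0.0706 as single libraries were left out. Rpl9-ps4 turned with quantile scaling (0.0080) and the covariates (0.13), and with the covariates so did Rps10-ps2 (0.0528), Rps27a-ps2 (0.18) and Rpl7a-ps11 (0.0569). Leaving out 1 library at a time gave 9 to 484 genes and 0 to 18 pseudogenes under AngII, 281 to 1007 and 5 to 37 over both, and 1 to 4 genes under saline. It gave 0 to 1 genes for AngII in wild type, 0 to 4 in knockout and 0 to 5 over both genotypes. Ratios ran from 6 to 14 pairs under AngII, 9 to 17 pairs with 2 to 4 pseudogenes over both, and 0 to 2 pairs with 0 to 1 pseudogenes under saline. The cause of these shifts was not tested.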
